A study of Mus musculus with 6 samples.

Results

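Genes that encode enzymes of NADPH supply were followed in mouse liver: the pentose phosphate pathway genes G6pdx, Pgls, Pgd, Taldo1, Tkt and Rpia, together with Me1 and Idh1. They were found by gene symbol in the platform annotation, which gave 9 of the array's 25697 probes. These belong to 6 of the 8 listed genes: Pgls, Taldo1, Tkt with 3 probes, Rpia, Me1 with 2 probes, and Idh1. No probe used here carries the symbol G6pdx or Pgd, so the 2 dehydrogenases of the pathway were not analysed here. Whole livers came from wild-type C57BL/6 mice, 3 given the adenovirus Ad-MafG and 3 given Ad-Control (Ad-CMV). Treatment lasted 5 days in both groups, the mice were fasted for 4 to 6 h before harvest, and 1 mouse gave 1 array. The labels give no dose, age or sex, and do not name the promoter that drives MafG. MafG belongs to the small Maf family and pairs with NRF2, BACH1 and related proteins to bind DNA.

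NADPH is the electron donor of reductive synthesis and of the enzymes that keep glutathione and thioredoxin reduced. The oxidative branch of the pentose phosphate pathway makes NADPH from glucose 6-phosphate, and its non-oxidative branch moves carbon between pentose phosphates and glycolysis. Malic enzyme 1 and isocitrate dehydrogenase 1 make NADPH in the cytosol from malate and isocitrate. In mouse liver several of these genes are known targets of NRF2, and Me1 is also a lipogenic gene that responds to feeding.

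Median deposited signals were 181.6 to 185.8 on Ad-MafG arrays and 160.6 to 180 on Ad-Control arrays, with 12802 to 13042 and 12079 to 12608 probes detected. Of 8 hepatocyte markers tested 6 were bright, with mean normalized log2 intensities of 12.88 to 15.16 in the Ad-MafG group and 13.21 to 15.21 in the Ad-Control group. The probes of the other two were dim, Alb with 6.36 in the Ad-MafG group and 6.70 in the Ad-Control group and Tat with 6.26 in the Ad-MafG group and 6.42 in the Ad-Control group. The array's Mafg probe does not check the labels. Its signal was 1620.6, 1469.2 and 1534.8 in the livers labelled Ad-MafG, against 1630.5, 1819 and 2027.1 in the livers labelled Ad-Control. Its log2 fold change was -0.54 (SE 0.11, limma adjusted p = 0.0341), and the labels do not say whether the vector carries the stretch it detects. Every direction below therefore rests on the labels.

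Me1 and Taldo1 were both close to 2-fold higher in the livers labelled Ad-MafG, and the other 4 measured enzymes did not pass the test. Taldo1, the transaldolase of the non-oxidative branch, had a fold of 2.0, and Me1, the cytosolic malic enzyme, had a fold of 1.94. Rpia and Tkt, which also act in the non-oxidative branch, had folds of 1.35 and 1.30. Idh1 had a fold of 1.11, and Pgls, the only oxidative-branch enzyme measured, had one of 1.01. Limma called 2 of the 6 higher and 0 lower at an adjusted p of 0.05, and left 4 uncalled. By the same test 9.91% of all 8827 genes passed, made up of 6.29% upward and 3.63% downward. The median log2 fold change was 0.41 over the 6 enzymes and -0.02 over all genes.

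The deposited signal was higher in all 3 Ad-MafG livers than in all 3 Ad-Control livers for each of the 9 probes. This held for 41.6% of the 12893 detected probes and 29.8% of all probes, and 44.6% of the detected probes stood apart in either direction. The Ad-MafG arrays had the higher medians, so the comparisons below use values after background removal and quantile normalization. On that scale the groups did not overlap for 4 of the 6 genes, Taldo1, Rpia, Me1 and Idh1, all upward. Across all genes 36.2% did not overlap, made up of 18.3% upward and 17.9% downward.

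**Figure D1:**
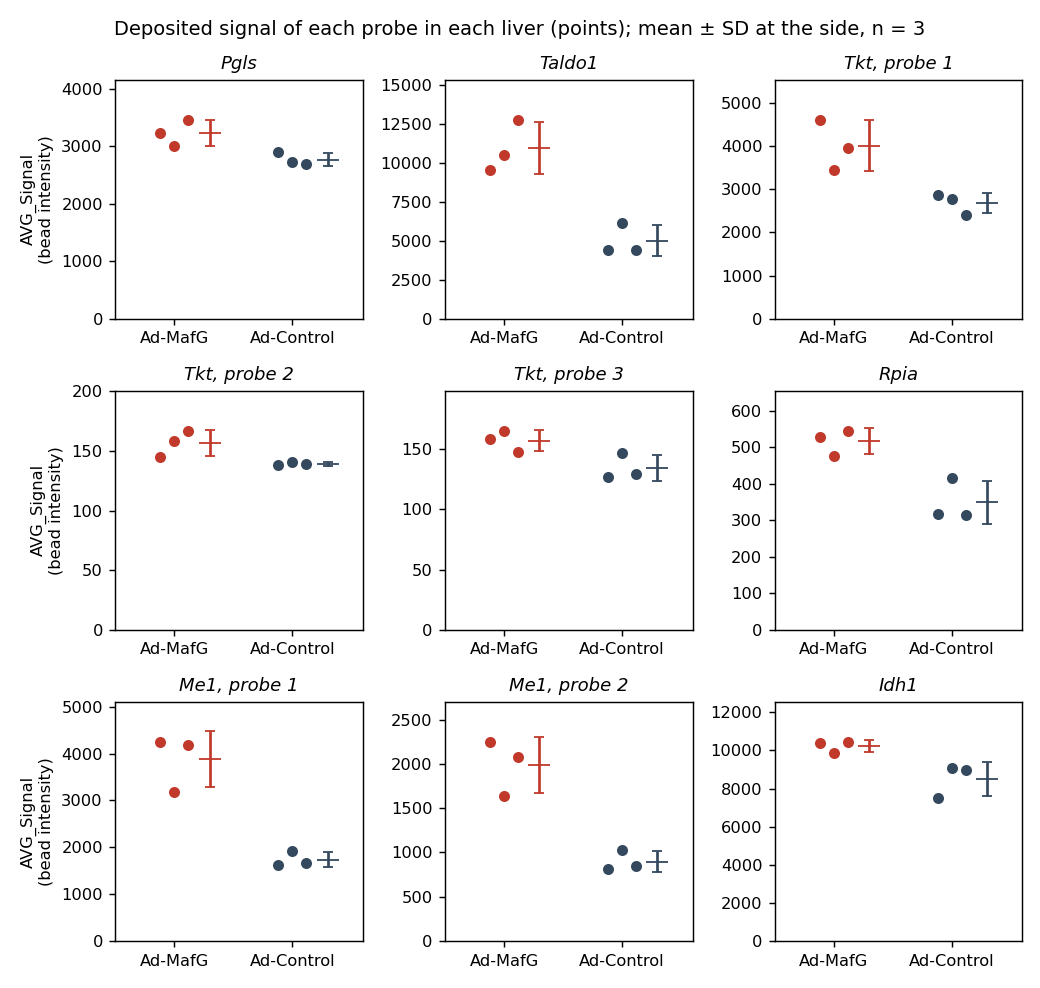
Deposited AVG_Signal (bead intensity, linear axis from 0) of the 9 probes in each liver, Ad-MafG left and Ad-Control right, with the mean and SD of 3 livers beside the points. Taldo1 and both Me1 probes show the widest gaps between the groups relative to their level, while Tkt probes 2 and 3 lie near background.

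Promoter sequence was read for the 2 genes that rose, because NRF2 dimers with small Maf proteins bind the antioxidant response element. RefSeq windows from 250 bases before to 50 after each start (GRCm38.p6) were found for all 8 listed genes, 11 windows in all. They were searched on both strands for TGACNNNGC, the core of that element, and for TGCTGA, an extended Maf recognition motif; the 2 motifs can share the letters TGA. The core stood in 3 of the 11 windows, 1 each of G6pdx, Pgd and Me1, and in 12.4% of all 32851 windows. TGCTGA stood in 0 of the 11 and in 19.5% of all. The Me1 window (chr9:86695865-86696164, minus strand) holds the core as TGACTCAGC, beginning 6 bases before the start, and its other window holds none. The Taldo1 window (chr7:141391910-141392209, plus strand) holds neither motif. Capitals mark the motif match, and a match or its absence in these windows says nothing on binding.
Me1 promoter: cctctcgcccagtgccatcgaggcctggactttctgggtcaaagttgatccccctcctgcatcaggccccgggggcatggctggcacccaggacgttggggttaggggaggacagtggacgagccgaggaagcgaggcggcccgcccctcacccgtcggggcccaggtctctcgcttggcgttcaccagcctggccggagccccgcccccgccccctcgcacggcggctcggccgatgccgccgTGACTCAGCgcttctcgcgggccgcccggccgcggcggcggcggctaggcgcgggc
Taldo1 promoter: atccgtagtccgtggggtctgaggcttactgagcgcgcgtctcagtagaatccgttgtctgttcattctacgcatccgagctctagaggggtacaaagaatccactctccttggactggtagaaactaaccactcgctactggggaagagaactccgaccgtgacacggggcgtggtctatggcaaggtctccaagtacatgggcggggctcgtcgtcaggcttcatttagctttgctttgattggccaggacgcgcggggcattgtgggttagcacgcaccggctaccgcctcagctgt

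Me1 encodes the NADP-dependent malic enzyme of the cytosol, which turns malate into pyruvate. Its brighter probe gave signals of 4250.2, 3186.7 and 4186.9 in Ad-MafG livers 1 to 3, against 1621.5, 1917.2 and 1665.8 in Ad-Control livers 1 to 3. The lowest Ad-MafG liver thus lay well above the highest Ad-Control liver. After normalization Me1 averaged 11.75 ± 0.23 in Ad-MafG livers and 10.79 ± 0.04 in Ad-Control livers on the log2 intensity scale (SD, n = 3 each). The Ad-Control livers were tightly grouped, and most of the spread came from Ad-MafG 2, the lowest of its group. The log2 fold change of Me1 was 0.96, with SE 0.13 (95% interval 0.64 to 1.27, limma adjusted p = 0.0118). Without Ad-MafG 1 the adjusted p was 0.0509 at a log2 fold change of 0.89.

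The dimmer Me1 probe repeated the pattern array by array. Its signals were 2251, 1636.8 and 2075.2 in Ad-MafG livers and 809.6, 1028.7 and 842.1 in Ad-Control livers. Again Ad-MafG 2 was the lowest of its group and Ad-Control 2 the highest of its own in deposited signal. In the fit over all 12893 detected probes, of which 9.9% passed and 5.91% passed upward, this probe had a log2 fold change of 0.97, with SE 0.13 (limma adjusted p = 0.0123). Both probes measure the same RNA in the same livers, so they are not separate replicates. In the authors' deposited table the difference scores of the 2 Me1 probes were 70.5 and 61.0.

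Taldo1 encodes transaldolase, which transfers a carbon unit between sugar phosphates and links the pathway to glycolysis. Its signals were 9533.1, 10503.1 and 12799.2 in Ad-MafG livers 1 to 3, against 4438.6, 6150.1 and 4400.2 in Ad-Control livers 1 to 3. Ad-MafG 3 was the highest of its group and Ad-Control 2 the highest of its own, and the groups stayed apart. After normalization Taldo1 averaged 13.34 ± 0.25 in Ad-MafG livers and 12.34 ± 0.18 in Ad-Control livers (SD, n = 3 each). Its log2 fold change was 1.0 (SE 0.16, 95% interval 0.63 to 1.37, limma adjusted p = 0.0163), higher than that of 97.3% of the genes tested. With each array left out in turn the adjusted p of Taldo1 ran from 0.0189 to 0.0497. The authors' deposited table gives Taldo1 a mean of 9660.8 in Ad-MafG and 5164.5 in Ad-Control, with a difference score of 48.7.

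**Figure D2:**
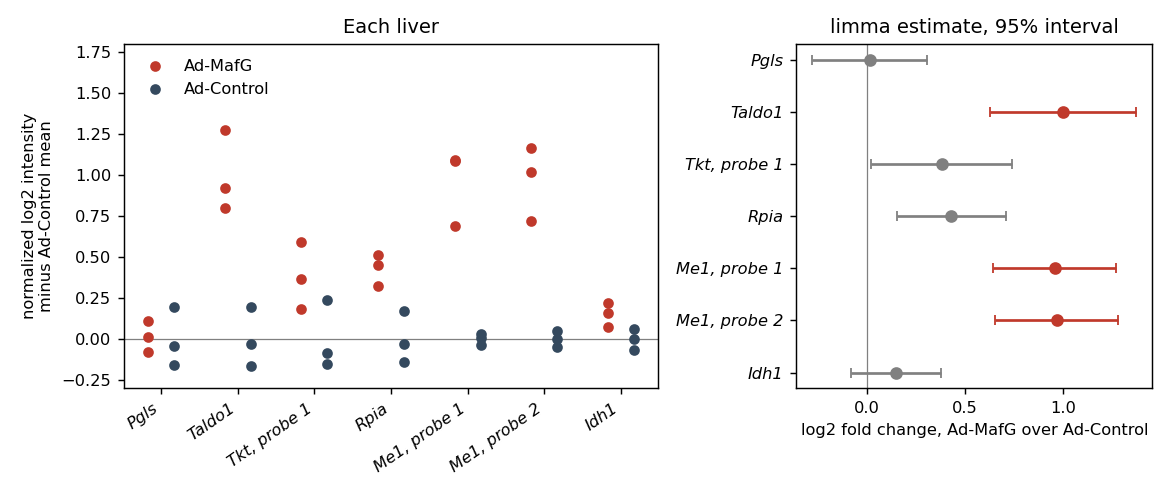
Left, normalized log2 intensity of the 7 detected probes in each liver, as the difference from the Ad-Control mean of that probe, with Ad-MafG in red left of Ad-Control in dark blue. Right, limma's log2 fold change with its 95% interval, red where the adjusted p was under 0.05; Taldo1 and both Me1 probes lie between 0.96 and 1.0, and Pgls lies at 0.01.

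Rpia encodes ribose 5-phosphate isomerase, which interconverts the pentose phosphates at the head of the non-oxidative branch. Its signals were 529.1, 477.3 and 546 in Ad-MafG livers and 317.1, 416.2 and 314.4 in Ad-Control livers. The groups did not overlap, and Ad-Control 2 stood nearest to the Ad-MafG livers. The log2 fold change of Rpia was 0.43 with an SE of 0.12 (95% interval 0.15 to 0.71), and its limma adjusted p of 0.0604 missed the threshold. Rpia passed in 6 of 18 alternatives, among them the fit without Ad-Control 2, where the log2 fold change was 0.52 (limma adjusted p = 0.038).

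Tkt encodes transketolase, the other transferase of the non-oxidative branch. Its bright probe had signals of 4615.3, 3437.5 and 3961.2 in Ad-MafG livers and 2857.4, 2773.7 and 2404.8 in Ad-Control livers. After normalization the groups overlapped, as Ad-MafG 2 at 11.61 lay below Ad-Control 1 at 11.66 on the log2 intensity scale. The log2 fold change of Tkt was 0.38 with an SE of 0.15 (95% interval 0.02 to 0.74, limma adjusted p = 0.147). The other two Tkt probes were not above background on any array, with signals from 144.9 to 167 in Ad-MafG livers and from 127.1 to 146.8 in Ad-Control livers. They say nothing on the level of Tkt and were left out of the test.

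Pgls encodes 6-phosphogluconolactonase, the middle step of the oxidative branch. Its signals were 3231.9, 3009.9 and 3467 in Ad-MafG livers and 2893.5, 2725.2 and 2693.4 in Ad-Control livers, apart in the deposited signal but overlapping after normalization. Pgls then averaged 11.49 ± 0.10 in Ad-MafG livers and 11.48 ± 0.18 in Ad-Control livers on the log2 intensity scale (SD, n = 3 each). Its log2 fold change was 0.01 (SE 0.12, limma adjusted p = 0.952). The 95% interval in this fit was -0.28 to 0.31. The sign turned under 6 of 18 alternatives, among them median scaling, where the log2 fold change was -0.0048.

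Idh1 encodes the cytosolic NADP-dependent isocitrate dehydrogenase. Its signals were 10371.3, 9845.6 and 10454.2 in Ad-MafG livers and 7490.7, 9080.1 and 8977.9 in Ad-Control livers. After normalization Idh1 averaged 13.24 ± 0.07 in Ad-MafG livers and 13.09 ± 0.07 in Ad-Control livers (SD, n = 3 each), without overlap but close together. The log2 fold change was 0.15 (SE 0.10, 95% interval -0.08 to 0.38, limma adjusted p = 0.34). In the authors' deposited table Idh1 had a difference score of 0.157 and Pgls one of -0.229, against 23.0 for Rpia and 4.10 for the bright Tkt probe.

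The 6 genes were also set against each other within each array, as the difference of their normalized log2 intensities, which asks whether their changes were unequal. Levels of different probes cannot be ranked, but the change of such a difference between groups can be read. The difference of Taldo1 minus Idh1 was -0.11, 0.10 and 0.31 in Ad-MafG livers, against -0.71, -0.56 and -0.98 in Ad-Control livers. For Pgls minus Me1 the mean was -0.26 in Ad-MafG livers and 0.68 in Ad-Control livers, and the 3 livers of each group stood apart. Taldo1 and Me1 kept nearly the same difference, with means of 1.59 in Ad-MafG livers and 1.54 in Ad-Control livers. Taldo1 minus Tkt averaged 1.53 in Ad-MafG livers and 0.91 in Ad-Control livers, with overlapping groups. Over all 15 pairs, which reuse the same 6 genes, the groups stood apart in 10, against 36.6% of all pairs of tested genes. Each of the 10 had an exact permutation p of 0.1 (two-sided, adjusted p = 0.15 over the 15 pairs). That is the smallest p that 3 livers against 3 allow, so no pair could pass the threshold.

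No other tested gene of the pathway or of NADPH supply passed the test. Of 6 tested pentose phosphate genes outside the measured enzymes, 0 passed limma's threshold, with a median log2 fold change of -0.14. An unadjusted p under 0.05 was found for 1 of them, against 29.8% of all genes. Prps1, which makes phosphoribosyl pyrophosphate from the pathway's ribose 5-phosphate, had -0.31 (limma adjusted p = 0.0927), and H6pd, the hexose 6-phosphate dehydrogenase of the endoplasmic reticulum, had -0.26. The ribokinase gene Rbks had -0.34 and the phosphoglucomutase gene Pgm1 0.12, neither past the threshold. Of 9 tested genes listed for other NADPH sources and NAD kinase, 0 passed, with a median of -0.06. An unadjusted p under 0.05 by limma was found for 4 of them (29.8% over all genes). The 9 include Shmt1 and Shmt2, whose enzymes make no NADPH themselves. The mitochondrial relatives of the measured enzymes had log2 fold changes of 0.37 for Me2 (limma adjusted p = 0.0738) and 0.24 for Idh2 (0.15). The folate pathway genes Mthfd1 and Shmt1 had -0.37 and -0.42, also short of the threshold. Without Ad-Control 2, 1 of these 9 genes passed upward, and 1 passed upward with median scaling (Me2, limma adjusted p = 0.0369). With no background correction, and also with trend and robust eBayes, Mthfd1, Shmt1 and the pathway gene Prps1 passed downward. With neither correction nor normalization Me2 and Idh2 passed upward (limma adjusted p = 0.0321 and 0.0112). In that setting the medians turned to 0.14 for the pathway genes and 0.11 for the other sources, against 0.21 over all genes.

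In a list of genes for reduction with NADPH, limma called 6 of 13 higher and 0 lower, against 6.29% and 3.63% over all genes. The median log2 fold change was 0.40, against -0.02 over all genes. The list is broad, as it holds Rrm1, Rrm2 and Cyb5r3, whose enzymes do not draw directly on NADPH. The carbonyl reductase genes Cbr3 and Cbr1 rose by 5.13 and 1.34 on the log2 scale (limma adjusted p = 0.00524 and 0.0111). Rrm1 and Rrm2, the subunits of ribonucleotide reductase, rose by 1.08 and 0.93. Of these 6 calls, 2 were made without Ad-MafG 1, 3 without Ad-Control 1 and 3 without Ad-Control 3. Rrm1 missed without Ad-MafG 1, Ad-MafG 2, Ad-Control 1 or Ad-Control 3 (limma adjusted p up to 0.0634). Rrm2 missed without Ad-MafG 1 or Ad-MafG 3 (up to 0.069). Of the 13, 10 lay above 0 and 3 below, with Txnrd2 lowest at -0.44 without overlap of the groups (limma adjusted p = 0.0821). With no background correction, with trend and robust eBayes and without Ad-Control 2, 1 of the 13 was called lower. Of 22 tested NRF2 targets outside the listed enzymes, 13 rose and 0 fell, against the same 6.29% and 3.63% over all genes. Their median was 1.07, also with the 2 genes not above background in Ad-Control at their bounds. Gclc, the catalytic subunit of glutamate-cysteine ligase in glutathione synthesis, rose by 1.46 (limma adjusted p = 0.0503 without Ad-MafG 1). Gstm2 rose by 1.30, while Gstm3 was at least 11.7-fold higher. The count of 13 became 3 with Ad-MafG 1 left out, 7 with Ad-Control 1 and 8 with Ad-Control 3 left out. Cbr3, Nqo1 and Txnrd1 are on both lists, and Rrm2 is also among the cell cycle genes counted below.

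**Figure D3:**
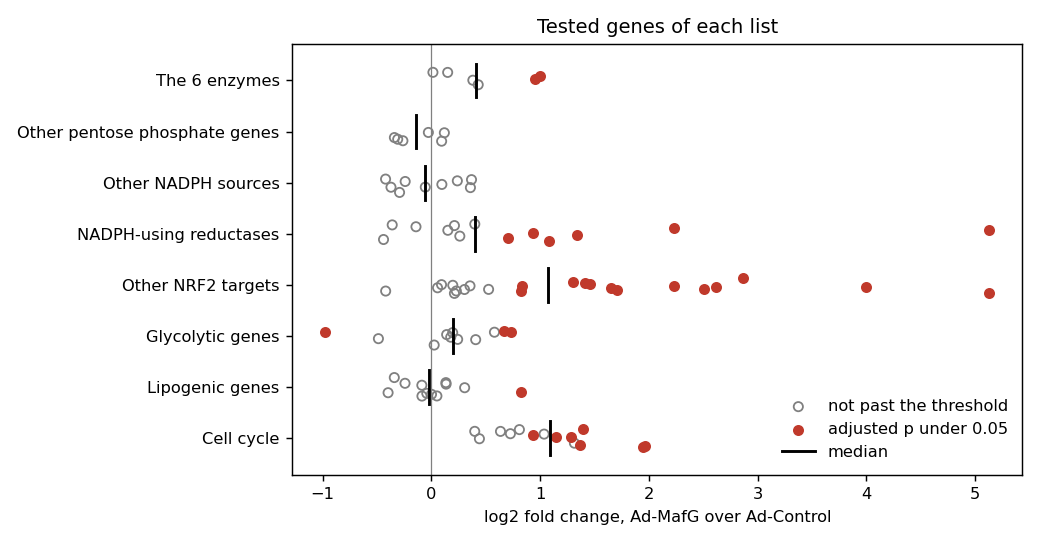
Log2 fold change, Ad-MafG over Ad-Control, of every tested gene in each list (points, red where the adjusted p was under 0.05) with the list's median as a black bar; height within a row is spread for visibility. The 6 enzymes have a median of 0.41, other pentose phosphate genes one of -0.14 and other NRF2 targets one of 1.07, with Gstm3 and Gpx2 drawn at fitted values rather than bounds.

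Glycolytic genes that share substrates with the pathway were mixed. Limma called 2 of 11 higher and 1 lower, against 6.29% and 3.63% over all genes, with a median log2 fold change of 0.20. The hexokinase genes Hk3 and Hk2, whose products make glucose 6-phosphate, rose by 0.67 and 0.73 on the log2 scale (limma adjusted p = 0.0325 and 0.0494). Pklr, the liver pyruvate kinase, fell by 0.97 (limma adjusted p = 0.0171). Aldoa had 0.58 (limma adjusted p = 0.0523). With any 1 array left out Hk2 missed the threshold (limma adjusted p up to 0.126), and Hk3 missed it in each case except without Ad-Control 2 (up to 0.0985). Pklr missed it without Ad-MafG 1, Ad-MafG 2 or Ad-Control 3 (up to 0.0643). Among 12 lipogenic genes, with which Me1 is often grouped, 1 was called higher and 0 lower, with a median of -0.02. The shares over all genes were the same 6.29% and 3.63%. The acetyl-CoA carboxylase gene Acaca rose by 0.83 (limma adjusted p = 0.0284), a call lost without Ad-MafG 1, Ad-MafG 3, Ad-Control 1 or Ad-Control 3 (up to 0.0819). The fatty acid synthase gene Fasn had -0.40, its regulator Srebf1 -0.34 and the elongase gene Elovl5 -0.24, none past the threshold.

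The genes closest in pattern to the 2 enzymes that rose were found by the root mean square difference of centred log2 values over the 6 arrays. Closest to Taldo1 were Maged2 at 0.07, Hspbap1 at 0.07 and Cers6 at 0.08. Their own log2 fold changes were 1.05, 0.90 and 0.93. Closest to Me1 were Skp2, Dynll1 and Sgo1 at 0.11, 0.12 and 0.12, with log2 fold changes of 0.89, 0.87 and 0.82. Nearest patterns over 6 arrays mostly share the difference between the groups, and nothing on common control is read from them.

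Markers of other cell types and of division moved in the same livers as Me1 and Taldo1. In bulk tissue fewer cells of a type and less RNA per cell cannot be told apart. Limma called 5 of 10 markers of Kupffer cells and macrophages higher and 0 lower, against 6.29% and 3.63% over all genes. C1qc and Adgre1 were higher by 1.13 and 1.40 on the log2 scale. The list did not move one way: Marco, a scavenger receptor, had -1.06 without overlap of the groups (limma adjusted p = 0.101), and Timd4, detected in 1 of 3 Ad-MafG livers and 3 of 3 Ad-Control livers, had -1.48 (0.249). Clec4f and Vsig4, also genes of resident Kupffer cells, had 0.27 and 0.24, neither past the threshold; these 4 were named after their values were seen. The summed normalized intensity of all 10 markers was 28956.7 to 30951.5 in Ad-MafG livers, against 14402.9 to 19425 in Ad-Control livers. With Ad-MafG 2 left out 2 of the 10 were called higher and 1 lower. With Ad-MafG 3 left out 2 were called higher, and with Ad-Control 3 left out 3 were. Of 10 stellate cell and fibroblast markers 4 rose, with sums of 15181.7 to 17905.6 in Ad-MafG livers and 13241.9 to 15050.9 in Ad-Control livers. Of those, 2 were called without Ad-MafG 1 or Ad-MafG 3 and 1 without Ad-MafG 2, Ad-Control 1 or Ad-Control 3. Col1a2 was at least 1.61-fold higher and not above background in Ad-Control livers.

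Hepatocyte markers lay slightly lower, with 8 of 8 tested genes below 0, against 4659 of 8827 over all genes. None of the 8 passed the threshold, and their median log2 fold change was -0.18. Their sums were 133259 to 141119 in Ad-MafG livers and 144383 to 153214 in Ad-Control livers. Of 14 cell cycle genes 7 rose and 0 fell, against 6.29% and 3.63% over all genes. The 14 had a median of 1.09, and Cdk1 and Birc5 rose by 1.96 and 1.37. Sums of the 14 were 8443 to 10322.5 in Ad-MafG livers and 3560.03 to 6661 in Ad-Control livers. The count of calls was 12 without Ad-Control 2, and 5 or 6 with any other array left out. For sinusoidal endothelium, T and NK cells and neutrophils 0 of 6, 0 of 6 and 0 of 3 tested markers passed. An unadjusted p under 0.05 by limma was found for 1, 0 and 1 of them, against 29.8% of all genes. These were the endothelial Lyve1 with 1.05 (limma adjusted p = 0.0542) and the neutrophil gene S100a8 with 0.79 (0.0533). Their groups did not overlap, and they passed in 6 and 8 of 17 alternatives. All 6 endothelial markers lay above 0, and so did 2 of the 3 neutrophil markers. Without Ad-Control 2 the passing markers of the 3 cell types numbered 1, 3 and 1. Single tested markers of B cells and cholangiocytes did not pass, while of 2 erythroid markers Alas2 fell by 1.13, a call lost without Ad-MafG 1, Ad-MafG 3 or Ad-Control 1 (limma adjusted p up to 0.0722). The other, the globin gene Hba-a1, had a log2 fold change of 0.40 (limma adjusted p = 0.217). The part that other cell types or division play in the rise of Me1 and Taldo1 was not tested.

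**Figure D4:**
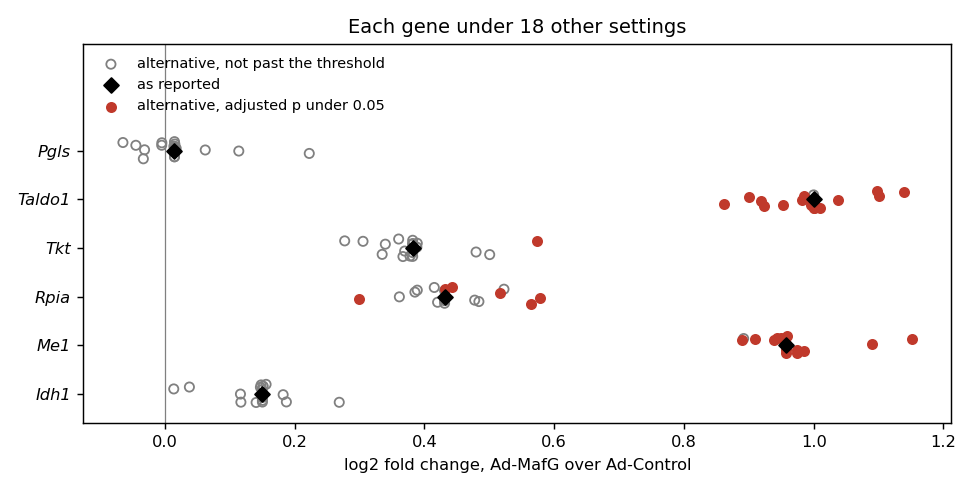
Log2 fold change of the 6 enzyme genes as reported (black diamonds) and under each of 18 other settings (circles, red where the adjusted p was under 0.05). Taldo1 ran from 0.86 to 1.14 and Me1 from 0.89 to 1.15, while Pgls ran from -0.06 to 0.22 around 0.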

How the data were processed

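Illumina arrays measured liver RNA of 6 mice, 3 per group; per the labels' protocols QIAzol and RNeasy were used for extraction and the cRNA carried biotin. Per the file headers, the deposited non-normalized table gives the mean bead intensity of each of 25697 probes on each array, with a detection p-value against background. A second deposited table holds intensity values the authors had scaled, and a further one their group means, a count of the arrays averaged and a signed difference score. For the scaling, the error model and the scanner software no description was given in the labels or headers.

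The neqc function of limma 3.58.1 (R 4.3.3) used the detection p-values for normexp background removal with offset 16, then quantile normalization and log2. The filter kept 12893 probes detected (p under 0.05) on 3 or more arrays. Each gene was represented by its probe with the highest mean, giving 8827 genes. Names came from the platform annotation: 23978 probes have 1 symbol, 0 several and 1719 none. The two-sided comparison by lmFit and eBayes had no covariate, and p-values were adjusted by Benjamini-Hochberg over all genes, at 0.05; further probes came from the same fit over all detected probes. The fit was tested on simulated data. Precision is limited by having 3 arrays a group.

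The members and lists were chosen with earlier results of these data known. Named were every member and its probes, up to 4 genes per list with the smallest unadjusted p, and the 3 genes closest in pattern to each member past the threshold; any other name was chosen after its values were seen. A slide term was not needed, with 1 slide for all 6 arrays. The labels give no pairing of the arrays by replicate number. Alternatives covered background correction, offset, normalization, the detection filter, the error model, the unit tested, the authors' scaled values, a replicate block and leaving out each array.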

Additional observations from a re-analysis of the deposited data

How the results depend on the processing

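Over 18 alternatives Me1 and Taldo1 each stayed higher in the livers labelled Ad-MafG and passed in 17, Me1 missing without Ad-MafG 1 and Taldo1 missing with a replicate block. Rpia passed in 6, Tkt in 1, and Idh1 and Pgls in 0. Member genes past the threshold numbered 2 as reported, 4 with neither background correction nor normalization, 1 with the replicate block and 1 to 3 with each array left out. The setting with neither moved the median log2 fold change of all genes to 0.21, against -0.02, and Tkt, which passed only there, had 0.57. All genes past the threshold numbered 875 as reported, 1322 with no background correction, 2328 with neither correction nor normalization, 1319 with trend and robust eBayes and 141 with the replicate block. They were 159 without Ad-MafG 1, 361 without Ad-MafG 2, 209 without Ad-MafG 3, 359 without Ad-Control 1, 1169 without Ad-Control 2 and 277 without Ad-Control 3; fewer arrays were then fitted. Of the calls 63.4% were higher in Ad-MafG as reported, 75.3% with median scaling and 94.6% with neither background correction nor normalization. The log2 fold change of Pgls, never past the threshold, was -0.0048 with median scaling, -0.032 with the authors' scaled values, -0.045 with array weights and -0.065 to 0.11 with each array left out. For changes not explained above the cause was not tested.

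With the replicate number as a block the adjusted p of Taldo1 was 0.065 and that of Me1 0.0488. Deviations of same-numbered arrays correlated across genes at 0.04, -0.14 and -0.12, and those of differently numbered arrays at -0.06 to 0.16. So few values cannot exclude a pairing, but the labels give none. Signal over background limits the 2 dim Tkt probes, which no setting can turn into a level.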
